A study of Caenorhabditis elegans with 2 samples.

Results

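The regions described here are candidate binding regions of an eGFP-tagged R02D3.7 protein whose summits lay within 1000 bp of the 5′ end of a tRNA gene in Caenorhabditis elegans. They were taken from the list of 30000 candidate regions called on the joined reads of both replicates, by the position of the summit alone and without use of any signal value, and 362 of the 30000 met the rule (1.21%). The annotation gave 634 tRNA genes, of which 612 are nuclear and 22 mitochondrial, and the lists held no region on the mitochondrial genome. The chromatin came from 1 group of whole L2 larvae of both sexes, strain OP218, sampled as 2 biological replicates. All larvae carried the unc-119(ed3) mutation on chromosome III and the integrated transgene wgIs218, so the protein measured was the tagged product of the transgene, R02D3.7 being the sequence name of the gene rcat-1. Among the samples used here no untagged or wild-type larvae form a second group, the control reads used in calling the regions were not analysed here, and read depth is unknown. The candidate list is permissive and holds background as well as peaks, so that a candidate region is not by itself a bound site.

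Transfer RNA genes are transcribed by RNA polymerase III. Their promoter lies mostly inside the transcribed sequence, in the A box and the B box, which are recognised by TFIIIC, and TFIIIC places TFIIIB just upstream of the start, where it recruits the polymerase. A run of T after the gene ends transcription. In C. elegans many tRNA genes lie in introns of protein-coding genes or between them, and the X chromosome is rich in them.

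The strongest regions whose summits lay within 100 bp of a tRNA 5′ end are given here as sequence, because the position of the summit against the tRNA gene is the pattern that the values turn on. Of these, 6 passed the irreproducible discovery rate (IDR) step, which compares how replicates rank their regions. Each run is on the strand of the tRNA gene, with the gene in capitals, 60 bp before it and 30 bp after it, on the ce11 build.
M02F4.t1 (tRNA-Gly, chrX:3036104-3036265, plus strand): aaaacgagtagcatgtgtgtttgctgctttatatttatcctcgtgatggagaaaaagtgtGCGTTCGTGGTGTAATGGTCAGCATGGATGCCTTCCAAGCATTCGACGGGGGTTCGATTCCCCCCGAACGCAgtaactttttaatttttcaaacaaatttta
W09D6.t2 (tRNA-Pro, chrIII:11066818-11066979, minus strand): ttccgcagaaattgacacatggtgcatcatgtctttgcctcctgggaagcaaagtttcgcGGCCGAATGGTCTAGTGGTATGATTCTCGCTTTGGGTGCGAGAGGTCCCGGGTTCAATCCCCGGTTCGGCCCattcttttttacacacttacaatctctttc
F15G9.t1 (tRNA-Ala, chrX:9743529-9743690, plus strand): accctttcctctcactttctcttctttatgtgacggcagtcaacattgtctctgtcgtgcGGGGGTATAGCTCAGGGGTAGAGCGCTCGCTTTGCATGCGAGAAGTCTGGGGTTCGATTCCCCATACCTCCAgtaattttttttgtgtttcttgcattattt
Y39B6A.t9 (tRNA-Phe, chrV:19125984-19126146, plus strand): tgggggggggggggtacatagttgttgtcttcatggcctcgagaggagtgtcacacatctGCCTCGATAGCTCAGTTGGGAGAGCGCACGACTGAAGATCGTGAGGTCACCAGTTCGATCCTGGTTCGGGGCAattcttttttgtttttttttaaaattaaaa
F57F5.t1 (tRNA-Ile, chrV:12002116-12002290, plus strand): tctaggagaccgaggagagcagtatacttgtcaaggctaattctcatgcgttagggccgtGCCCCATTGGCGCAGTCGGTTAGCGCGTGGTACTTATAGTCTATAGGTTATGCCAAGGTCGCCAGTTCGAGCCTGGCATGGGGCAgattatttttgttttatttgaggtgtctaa
C33G3.t2 (tRNA-Lys, chrX:14063916-14064078, minus strand): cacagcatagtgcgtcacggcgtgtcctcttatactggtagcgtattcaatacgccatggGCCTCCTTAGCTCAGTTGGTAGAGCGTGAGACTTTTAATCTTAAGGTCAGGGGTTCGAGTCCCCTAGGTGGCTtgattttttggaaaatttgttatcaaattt
In M02F4.t1, W09D6.t2, Y39B6A.t9 and C33G3.t2 the summit fell in the lower-case stretch before the gene, at 25, 49, 48 and 44 bp upstream of the 5′ end. In F15G9.t1 and F57F5.t1 it fell in the 3′ part of the gene, 58 and 68 bp downstream of the 5′ end. A run of at least 4 T stands after the gene in all 6, as it does within 30 bp of 605 of the 612 nuclear tRNA genes.

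The first question was whether candidate summits were denser near tRNA genes than along the same chromosomes. Summits were denser only close to the 5′ end. Within 100 bp on either side there were 106 summits around the 612 nuclear tRNA genes in the joined list, where the mean density of the chromosomes would give 37.6, a ratio of 2.82. From 100 to 1000 bp the ratio was 1.05, and from 1000 to 2000 bp it was 0.958. The lists of the replicates taken singly had the same shape: the ratio within 100 bp was 3.07 in replicate 1 and 2.08 in replicate 2, and it was 1.02 from 100 to 1000 bp in both. The 1000 bp windows as a whole covered 0.995% of the genome for 1.21% of the summits, so that most of the 362 regions lay where summits were about as dense as elsewhere.

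**Figure D1:**
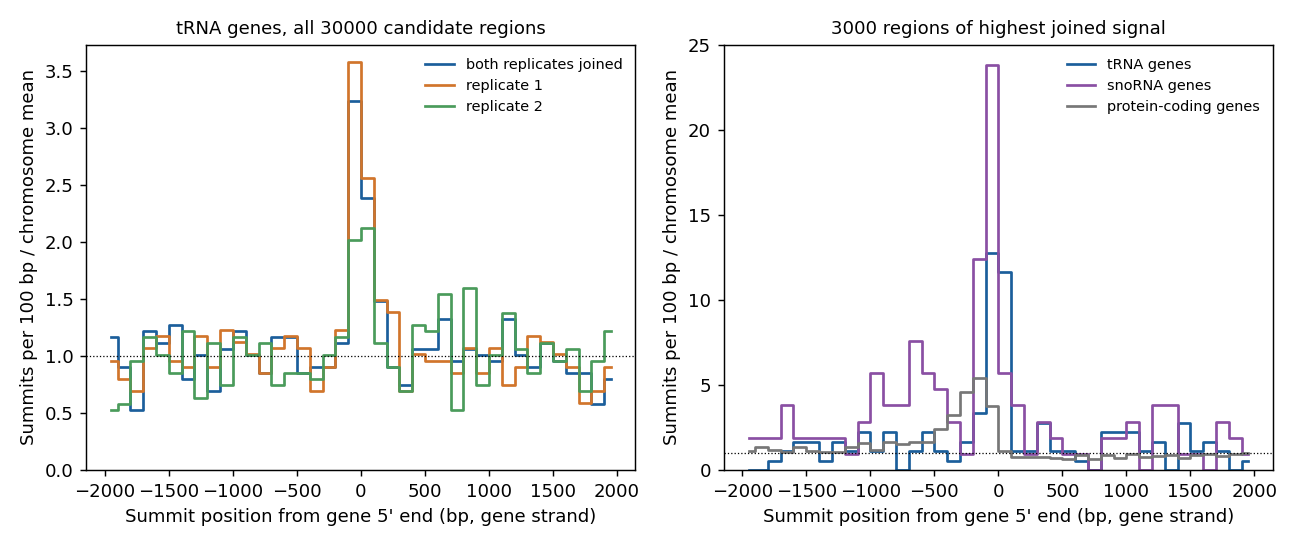
Density of candidate summits by position from the gene 5′ end in 100 bp bins (x axis, bp on the gene's strand), as a ratio to the mean density of the chromosomes (y axis, dotted line at 1). Left, tRNA genes in the joined list and in each replicate's list; right, tRNA, snoRNA and protein-coding genes with the 3000 regions of highest joined signal. The tRNA curves rise in the bins next to the 5′ end on the left, and from 300 bp outwards their bins scatter around 1, between 0.532 and 1.60.

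Around the 5′ end the summits were counted on each side. In 25 bp bins the densest stretch upstream was 75 to 25 bp before the 5′ end, with 19 summits in each of its bins (ratio 4.04). The densest upstream bin was 50 to 25 bp before the 5′ end in replicate 1, with 23 summits (ratio 4.91), and 75 to 50 bp before it in replicate 2, with 13 (ratio 2.77). Downstream no bin stood out in all lists: the densest was 50 to 75 bp in the joined list (15 summits), 25 to 50 bp in replicate 1 (15) and 0 to 25 bp in replicate 2 (12). Each of these bins rests on few summits. In the joined list, 61 of the 106 summits lay upstream and 45 downstream. In replicate 2 the split was 38 and 40, and in replicate 1 it was 67 and 48, so the larger upstream share was not seen in both replicates.

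The excess was larger among the regions of high signal. Signal is the value the authors' peak caller gave each region, on a scale that is not stated, and rank 1 is the highest of the 30000. Of the 3000 regions of highest joined signal, 44 summits lay within 100 bp of a tRNA 5′ end against 3.60 at the mean density, a ratio of 12.2. The ratio from 100 to 1000 bp was 1.42. The same count with each replicate's own top 3000 gave 45 against 3.59 in replicate 1 (ratio 12.5) and 17 against 3.67 in replicate 2 (ratio 4.63). The excess was thus in both replicates and was smaller in replicate 2.

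Over all 362 regions the median joined signal was 15.7 (quartiles 13.2 and 20.4, range 11.6 to 155), and the median of all candidates was 14.9. The median rank was 12496.5, the best 113 and the worst 29883. Counted in steps of 3000 ranks, 68 of the 362 stood in the top 3000 (18.8%, 95% Wilson interval 15.1 to 23.1, where the share of all candidates is 10%), and each later step held between 23 and 42. The regions near tRNA genes were therefore spread over the whole list, with a larger share at its top. The intervals here and in what follows cover counting error only, since regions are not replicates.

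**Figure D2:**
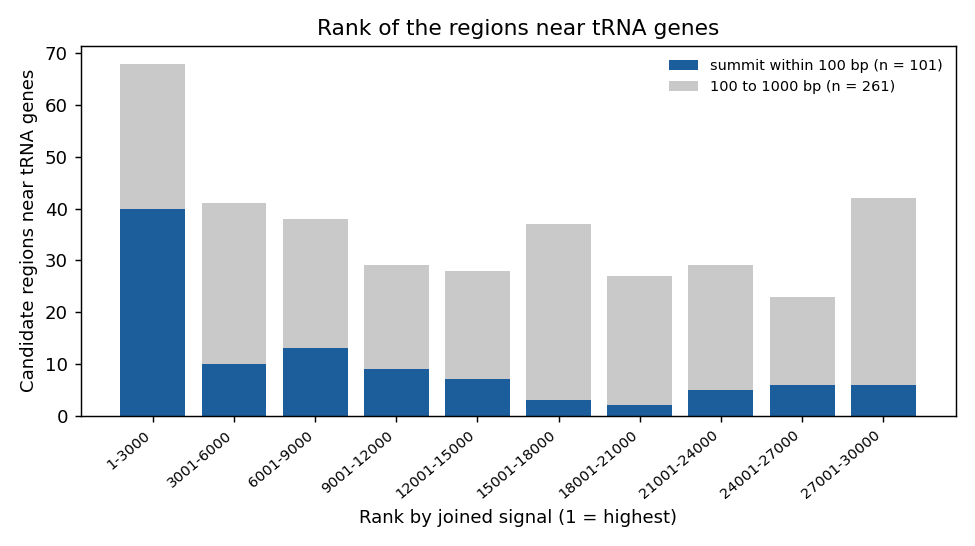
Number of the 362 regions near tRNA genes (y axis) in each step of 3000 ranks of the joined list (x axis, rank 1 highest signal). Blue, summit within 100 bp of a tRNA 5′ end; grey, 100 to 1000 bp. The first step holds 68, of which 40 are within 100 bp.

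The larger share at the top came from regions close to the tRNA gene. The regions within 100 bp, 27.9% of the 362, had a median signal of 18.8 and a median rank of 6099, and 40 of them were in the top 3000 (39.6%, interval 30.6 to 49.4). The 261 regions farther away had a median signal of 14.9, the same as all candidates, a median rank of 15214, and 28 in the top 3000 (10.7%, interval 7.53 to 15.1). The farther regions thus had the rank distribution of the whole list, and their share is near the background of 10%. The windows around tRNA 5′ ends are rich in G and C: the sequence 50 bp to either side of the summit had a median GC of 46.5% in the near regions, 33.7% in the far ones and 32.7% over all candidates. Around all 612 nuclear tRNA 5′ ends it was 49.5%, around the 106 with a summit within 100 bp 51.5%, and around the 506 without one 49.5%. The part of base composition in the excess was not tested.

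Of the 362 regions, 10 were in the IDR set (2.76%, interval 1.51 to 5.01), where the share of all candidates is 1.81%. Within 100 bp the share was 6 regions (5.94%, interval 2.75 to 12.4), and beyond it 4 of 261 (1.53%, interval 0.598 to 3.87). The IDR set is exactly the 542 regions of highest joined signal, so membership in it is a cut in rank and no separate measure. The 3 members with the lowest ranks inside it, at Y39B6A.t9, F57F5.t1 and C33G3.t2, had signals of 39.5, 39.5 and 39.1. The 3 nearest outside it, at F11A1.t1, C42D8.t1 and T21B4.t1, had 38.2, 37.2 and 36.4. The boundary of 1000 bp was as gradual: the last summits inside it lay 988, 995 and 1000 bp from C15C6.t1, F47E1.t2 and F40H6.t1, with signals of 14.5, 13.7 and 21.8, and the first outside it 1007, 1008 and 1028 bp from R04D3.t2, Y105C5B.t4 and Y55F3BR.t1, with 15.4, 13.1 and 15.2.

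**Figure D3:**
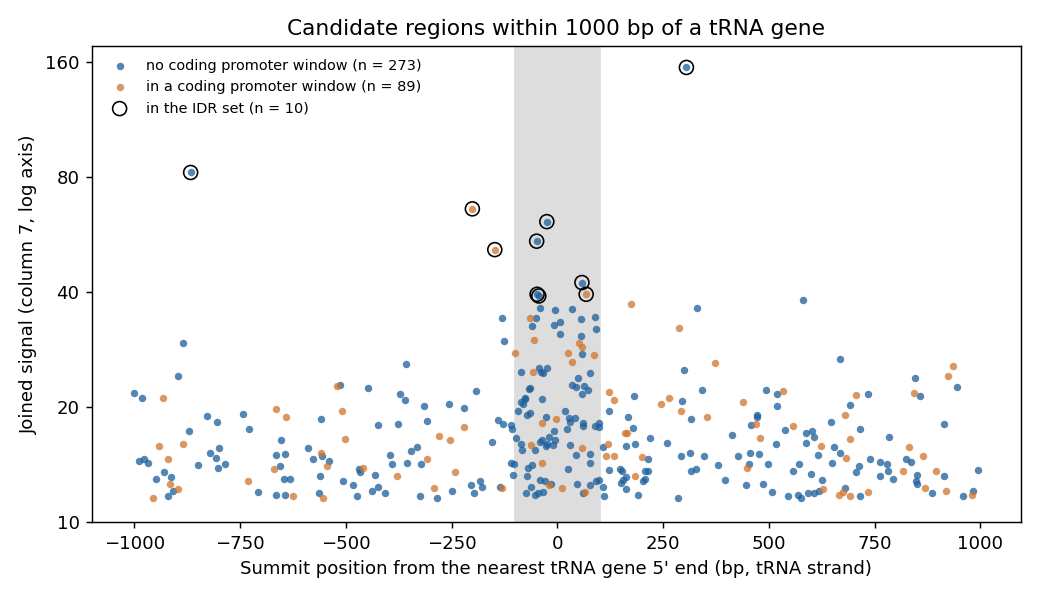
Joined signal (y axis, log axis) of each of the 362 regions against the position of its summit from the nearest tRNA 5′ end (x axis, bp on the tRNA strand); grey band, within 100 bp. Orange, summit in a coding promoter window; circles, the 10 regions of the IDR set. Of the 10, 6 lie in the band, and the 3 of highest signal lie outside it.

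The region of highest signal was not at a tRNA gene. It lay at chrX:8036287-8036616, with its summit 305 bp from the 5′ end of C18A11.t2, a tRNA-Arg gene on the minus strand, and past that gene's 3′ end. Its joined signal was 155 at rank 113, with 133 in replicate 1 (rank 97) and 32.9 in replicate 2 (rank 149). It stood between protein-coding genes, 4838 bp after C34D10.1 and 4861 bp before xol-1, the X-linked switch gene of sex determination. It was high in both replicates and had the best rank of any member in each. The 50 bp to either side of its summit, shown because no tRNA sequence lies in them, held none of the words named further on.
C18A11.t2 region summit (chrX:8036402-8036502, plus strand): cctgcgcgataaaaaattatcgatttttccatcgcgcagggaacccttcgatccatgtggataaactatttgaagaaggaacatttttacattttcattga

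The next region, at chrV:8500338-8500667, was likewise distant, 867 bp upstream of ZK994.t2, a tRNA-Lys gene. Its summit lay 76 bp upstream of the 5′ end of ZK994.7, a snoRNA gene, and in an intron of pxn-1, which encodes a peroxidasin. Its signals were 82.3 joined (rank 227), 67.2 in replicate 1 and 16.9 in replicate 2. The region at chrII:12677948-12678277 lay just over 200 bp upstream of Y38E10A.t1, a tRNA-Ala gene, and between the divergent genes Y38E10A.22 and Y38E10A.24, in the promoter windows of both. Its signals were 66.1 joined (rank 292), 45.7 in replicate 1 and 20.5 in replicate 2. Both regions ranked within the first 400 of each replicate's list, so they were high in both.

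The strongest region with its summit within 100 bp was that at M02F4.t1, a tRNA-Gly gene on X, at chrX:3035974-3036303. Its signal was 61.2 joined (rank 330), 38.1 in replicate 1 (rank 390) and 21.5 in replicate 2 (rank 247). The region at W09D6.t2, a tRNA-Pro gene with the summit in an intron of rsa-2, which encodes a protein of the centrosome, had 54.4 joined (rank 361), 37.6 in replicate 1 (rank 394) and 14.1 in replicate 2 (rank 643). The region at C33G3.t2, a tRNA-Lys gene between dyc-1 and lgc-21, had 39.1 joined (rank 542), 25.2 in replicate 1 (rank 650) and 12.4 in replicate 2 (rank 1168). None of these 3 shared a coding promoter window, and all 3 stood high in both lists.

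The other members of the IDR set were high in one replicate and lower in the other. At Y39B6A.t9, a tRNA-Phe gene between bed-1 and dyf-17, the joined signal was 39.5 (rank 533), with 18.6 in replicate 1 (rank 1444) and 18.9 in replicate 2 (rank 295). At R04A9.t1, a tRNA-Gln gene with the summit 148 bp upstream, in the promoter window and an intron of ZK1193.2, it was 51.7 (rank 390), with 44.1 in replicate 1 (rank 331) and 8.58 in replicate 2 (rank 6321). At F15G9.t1, a tRNA-Ala gene in an intron of him-4, which encodes the extracellular matrix protein hemicentin, it was 42.4 (rank 476), with 34.2 in replicate 1 (rank 444) and 8.63 in replicate 2 (rank 6160). R04A9.t1 and F15G9.t1 thus stood high in replicate 1 and lower in replicate 2, though above the median of 7.30 there for all candidates matched. F57F5.t1 is a tRNA-Ile gene between gcy-33, encoding a receptor-type guanylate cyclase, and cpr-9, encoding a cysteine protease, with the summit in the promoter windows of both. Its ranks lay farther apart: 39.5 joined (rank 535), 33.8 in replicate 1 (rank 448) and 6.37 in replicate 2 (rank 16716), below that median. The next highest region with its summit inside a tRNA gene, at C35E7.t1, a tRNA-Asp gene on chromosome I, had 36.2 joined (rank 608), 24.4 in replicate 1 and 11.1 in replicate 2. The gene of the selenocysteine tRNA, K11H12.t1, of which the annotation has 1, had a summit 56 bp upstream. This summit also lay in the promoter window of K11H12.8, and its signal was 29.9 (rank 893), 25.7 in replicate 1 and 8.01 in replicate 2.

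Support by the replicates was counted as an overlap of at least 1 bp with a region of each replicate's own list of 30000. Of the 362, 74.9% were matched in replicate 1, 191 in replicate 2 (52.8%) and 132 in both (36.5%, interval 31.7 to 41.5), where the share of all candidates matched in both is 30.7%. A further 139 were matched in replicate 1 only, 59 in replicate 2 only and 32 in neither. Within 100 bp, 53 regions were matched in both (52.5%, interval 42.8 to 61.9), and beyond it 79 of 261 (30.3%). Regions close to a tRNA gene were thus matched in both replicates more often than those farther away, whose share is near the background. Support rises with rank, and among the 68 members of the top 3000 it was 56 (82.4%), close to the 2422 of 3000 for all candidates there (80.7%).

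The replicates differed in how high these regions stood. Among near members matched in replicate 1 the median signal there was 15.7 (n = 85), against 11.2 for all candidates matched. Of all near members, matched or not, 43 ranked in that replicate's top 3000 (42.6%, where the share of all candidates is 10.2%). Among near members matched in replicate 2 the median was 7.40 (n = 65), against 7.30 for all candidates matched. Of all near members, again matched or not, 14 ranked in the top 3000 of replicate 2 (13.9%, where the share of all candidates is 8.86%). In replicate 2 the near regions were thus more often present than the far ones (64.4% against 48.3%), while their median signal was about that of other candidates. In the replicates' own lists, which gave 373 and 336 regions by the same rule, 42 of 112 near regions stood in the top 3000 of replicate 1 (37.5%) and 15 of 77 in that of replicate 2 (19.5%). For the far regions these shares were 12.3% and 10.8%.

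In both replicates' top 3000 there were 18 of the 362 (4.97%), where the share of all candidates is 2.29%, and 9 of the 18 lay within 100 bp. The 3 members whose ranks differed most were at F25F6.t1, a tRNA-Glu gene with 20.6 in replicate 1 (rank 1029) and 4.91 in replicate 2 (rank 29712), at R11G10.t1, a tRNA-Pro gene with 7.77 (rank 29763) and 11.9 (rank 1433), and at C37A2.t1, a tRNA-Cys gene with 20.7 (rank 1010) and 5.10 (rank 27626). Each of these 3 was near the top of one list and near the end of the other.

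**Figure D4:**
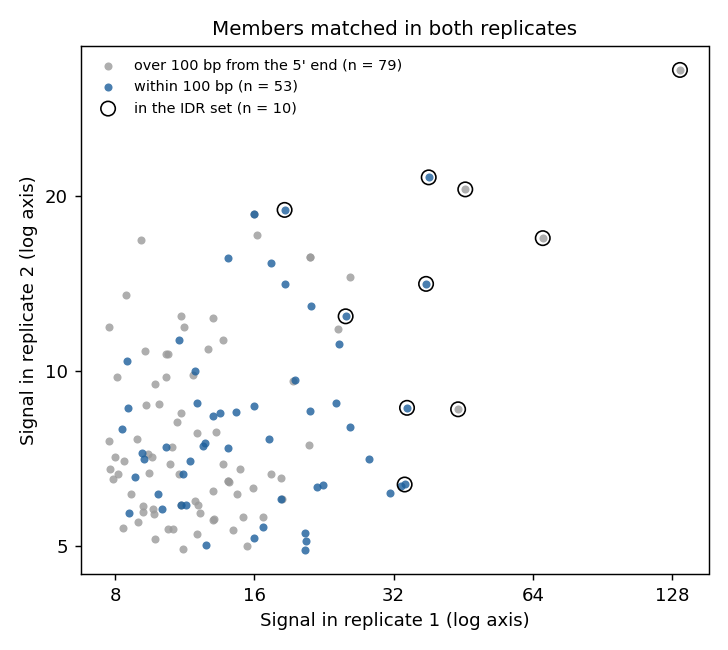
Signal in replicate 1 (x axis, log axis) against signal in replicate 2 (y axis, log axis) for the 132 regions near tRNA genes matched in both. Blue, summit within 100 bp of the tRNA 5′ end (n = 53); grey, farther away (n = 79); circles, the 10 regions of the IDR set. The region at C18A11.t2 stands at the upper right with 133 and 32.9.

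A tRNA gene can share its surroundings with the promoter of a protein-coding gene, taken as 1000 bp upstream to 200 bp downstream of any of its annotated 5′ ends. Of the 362 summits, 89 lay in such a window (24.6%, interval 20.4 to 29.3), where the share of all candidates is 30.4%. Coding windows covered 24.9% of the bases of the tRNA windows, so that the summits fell in them about as often as their length would give. Within 100 bp of the tRNA 5′ end 17 regions were in a coding window (16.8%), and beyond it 72 of 261 (27.6%). Most of the near regions therefore had no coding promoter beside them, and summits were also dense around the 473 tRNA 5′ ends outside all coding windows, with 88 within 100 bp against 29.2 at the mean density (ratio 3.02). Around the 139 tRNA 5′ ends inside a coding window there were 18 against 8.43 (ratio 2.13).

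The median signal was 16.4 in the 89 regions with a coding promoter window and 15.5 in the 273 without. With replicate 2's list alone the sign of this difference turned, so no order is given. Among near regions the medians were 24.7 for the 17 in a coding window, of which 9 were in the top 3000, and 18.8 for the 84 outside, of which 31 were. For those matched in replicate 1 the medians there were 18.3 (n = 15) and 15.1 (n = 70). In replicate 2 they were 6.22 (n = 10) and 7.46 (n = 55), so no order is given here either. Of the 362 summits, 175 lay between protein-coding genes (48.3%), 117 in introns (32.3%) and 70 in exons (19.3%). Over all candidates these shares were 41.8%, 35.3% and 22.9%. Among near regions 5 lay in exons (4.95%).

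The genes themselves were counted next. Of the 612 nuclear tRNA genes, 354 had a candidate summit within 1000 bp (57.8%) and 106 had one within 100 bp (17.3%, interval 14.5 to 20.5). Within 1000 bp the share was 63.0% for snoRNA, 53.6% for miRNA, 53.5% for snRNA and 51.8% for protein-coding genes. The 57.8% of tRNA genes lies within that range. When each of the 362 summits was given to its nearest tRNA gene, they fell to 291 of the 634 tRNA genes (45.9%). Of these, 229 had 1 region, 53 had 2 and 9 had 3. C28G1.t1, a tRNA-Glu gene on X, had 3 with signals from 11.7 to 34.3, and its strongest summit lay 64 bp upstream in the promoter windows of C28G1.2 and sec-15, which encodes a subunit of the exocyst. F22G12.t1, a tRNA-Val gene, had 3 from 18.0 to 24.1, and C02B4.t2, a tRNA-Tyr gene, had 3 from 17.1 to 22.7. Of all neighbouring regions, 12 pairs overlapped each other.

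X carried 167 of the 362 regions (46.1%, interval 41.1 to 51.3), although it carried 5702 of the 30000 candidates. It also carries 276 of the 612 tRNA genes (45.1%), and the number of regions per tRNA gene was 0.605 there and between 0.469 (chromosome III) and 0.634 (chromosome IV) on the autosomes. The share on X was thus that of the tRNA genes. The density ratio within 100 bp was 3.04 on X and 2.62 on the autosomes. With the joined top 3000, 56 of 276 tRNA genes on X had a summit within 1000 bp (20.3%, interval 16.0 to 25.4) and 32 of 336 on the autosomes (9.52%, interval 6.83 to 13.1), and these intervals do not overlap. With each replicate's own top 3000 the shares were 20.3% and 10.7% in replicate 1 (intervals 16.0 to 25.4 and 7.84 to 14.5) and 33 of 276 against 22 of 336 in replicate 2 (intervals 8.64 to 16.3 and 4.36 to 9.71), the last pair overlapping. More of the tRNA genes on X than on the autosomes thus had a strong region within 1000 bp. Of all candidates on X, 8.70% were in the top 3000. Genes were counted here and not regions. In the joined list the 56 genes on X lay near 38 regions of the top 3000, out of 68 such regions on all chromosomes. Genes that share a summit are not separate counts, so the intervals do not settle how far X and the autosomes differ. Within 100 bp, 27 of 276 tRNA genes on X had a top 3000 summit (9.78%, interval 6.81 to 13.9) and 17 of 336 on the autosomes (5.06%, interval 3.18 to 7.95), and these intervals overlap. In the replicates' own lists, without a limit on rank, the share of genes with any summit within 100 bp was 19.2% on X and 18.8% on autosomes in replicate 1, and 12.7% and 13.1% in replicate 2.

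Most tRNA genes of C. elegans exist in identical copies: 469 of the 612 shared their sequence with another, with 200 different sequences in all and up to 29 copies of one. A summit within 100 bp was found at 90 of these 469 (19.2%, interval 15.9 to 23.0) and at 16 of the 143 with a sequence of their own (11.2%, interval 7.01 to 17.4). The density ratios were 3.12 and 1.84. The share was higher for identical copies in both replicates, at 19.8% and 16.1% in replicate 1 and 14.1% and 9.09% in replicate 2, and the intervals overlap in all 3 lists. How reads that match several copies were placed is not given in the sources used here, and its part in this was not tested. A near summit was found at 15.2% of the 230 genes with another tRNA 5′ end within 1000 bp and at 18.6% of the 382 lone genes, and these intervals overlap as well. The shares were close to each other for genes inside a coding gene on the same strand (18.0% of 167), inside one on the opposite strand (17.1% of 123) and outside coding genes (17.1% of 322).

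By amino acid, the share of genes with a summit within 100 bp was highest for tRNA-Phe (4 of 14, 28.6%), tRNA-Pro (11 of 42, 26.2%) and tRNA-Asp (7 of 27, 25.9%). It was lowest for tRNA-Gln (1 of 27 genes), tRNA-Met (1 of 20) and tRNA-Trp (1 of 12). The selenocysteine gene, with 1 of 1, is left out of this order. Each interval was wide, that of tRNA-Phe running from 11.7 to 54.6 and that of tRNA-Gln from 0.657 to 18.3, and all 20 of the amino acids with 10 or more genes had intervals that hold the overall 17.3%. No amino acid therefore stood apart at this number of genes.

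**Figure D5:**
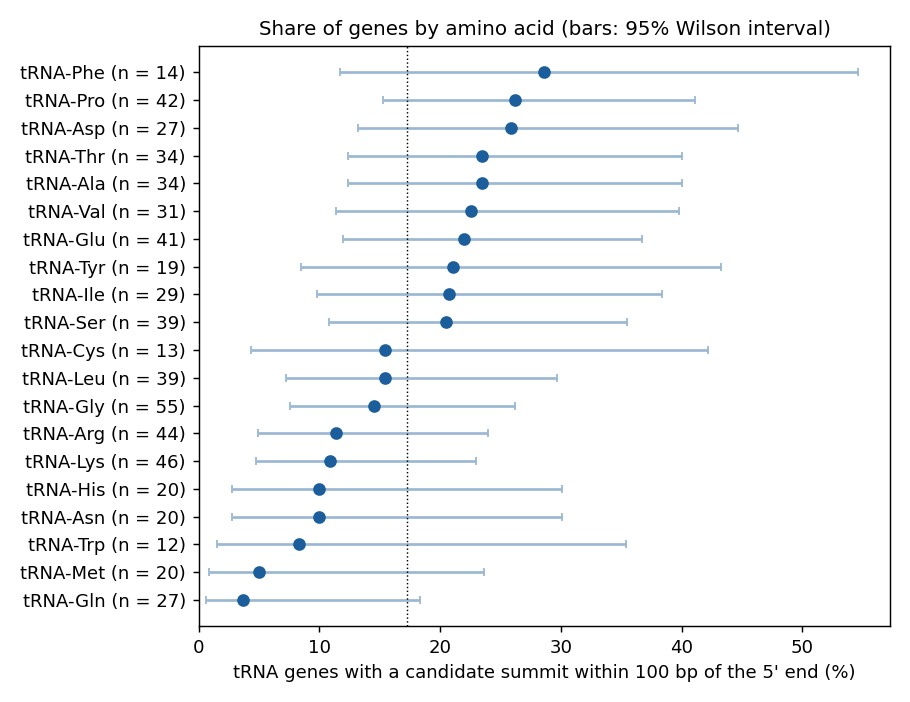
Share of nuclear tRNA genes with a candidate summit within 100 bp of the 5′ end (x axis, percent) for each amino acid with 10 or more genes (y axis, number of genes in brackets). Points, share; bars, 95% Wilson interval; dotted line, 17.3% for all 612 genes. Every bar crosses the dotted line.

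The 50 bp to either side of each summit were searched on both strands for 4 words known from an earlier look at the IDR set of these data. These were ACGCGC and the word GACGCA, and further CGTAAA with its longer form CGTAAATC. The search also took in GGTTCGA, the start of the B box. At least 1 of the 4 words was present in 42 of the 362 regions (11.6%, interval 8.70 to 15.3) and in 8.07% of all 30000. It was present in 18 of the 89 regions with a coding promoter window (20.2%, interval 13.2 to 29.7) and in 24 of the 273 without (8.79%, interval 5.98 to 12.7). A word was thus found more often where a coding promoter was shared, and ACGCGC was in 8 of the 89 and in 1 of the 273. Over all 30000 candidates ACGCGC was in 1.54%. Of all candidates within 1000 bp of a coding 5′ end, 9.53% held a word and 2.30% held ACGCGC. That set reaches 1000 bp to either side, and 68.8% of it lies in a coding promoter window, so it is wider than the set of the 89. Within 100 bp of the tRNA 5′ end 12 regions held a word (11.9%). Some tRNA genes hold a word in their own sequence, 44 of the 612 having ACGCGC, and in F57F5.t1 its complement GCGCGT stands inside the capitals printed above.

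Among the 4 members of the IDR set farther than 100 bp from the 5′ end, only that at R04A9.t1 held a word. The 50 bp to either side of its summit are shown with TGCGTC, the reverse complement of GACGCA, in capitals.
R04A9.t1 region summit (chrX:410193-410293, plus strand): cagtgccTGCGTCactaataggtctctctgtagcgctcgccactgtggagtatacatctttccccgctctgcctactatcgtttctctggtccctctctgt
GGTTCGA was present around 25 of the near summits (24.8%), around 3 of the 261 far ones (1.15%) and around 0.683% of all candidates. The word itself is held by 395 of the 612 genes (64.5%). Genes with and without it had a near summit in 16.7% of 395 and 18.4% of 217 cases, and these intervals overlap (13.4 to 20.7 and 13.8 to 24.1).

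The snoRNA genes and protein-coding 5′ ends were the classes set beside the tRNA genes. Around 346 snoRNA genes the density ratio within 100 bp was 3.17 in the joined list, 3.16 in replicate 1 and 2.39 in replicate 2, and 14.7 for the top 3000. Around protein-coding 5′ ends it was 1.17, and 2.44 for the top 3000, whose densest bin there lay farther upstream, 200 to 100 bp before the 5′ end (ratio 5.43). The excess close to the 5′ end was thus about as large at snoRNA genes as at tRNA genes, and is not particular to the latter. No region within 100 bp of a tRNA 5′ end lay within 1000 bp of a snoRNA 5′ end, and 4 of the 362 did. The sides were not filled alike: for the top 3000 at tRNA genes, 23 summits lay in the 100 bp upstream and 21 in the 100 bp downstream, while at snoRNA genes these were 25 and 6 and at coding 5′ ends 335 and 98. This split was not tested.

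The protein-coding genes that make and process tRNA were read from their promoter windows. Of 19973 protein-coding genes, 43.0% had a candidate summit in the window and 3.47% one of the IDR set. Of 12 matched genes of RNA polymerase III transcription, 7 had a candidate (58.3%) and 0 were in the IDR set. The highest were mafr-1, encoding the repressor MAF1 of the polymerase, at 27.8 (rank 1112), with 22.8 in replicate 1 and 6.37 in replicate 2, and tftc-1, encoding a subunit of TFIIIC, at 26.4 (rank 1353), with 20.5 and 6.16. Of the others with a candidate, rpac-40 had a value in both replicates, and the rest in 1 replicate only. The genes rpc-25, tbp-1, brf-1, tftc-3 and tftc-5 had no candidate. Of 18 matched genes of tRNA processing and export, 15 had a candidate (83.3%) and 1 was in the IDR set (5.56%). This was pus-1, encoding a pseudouridine synthase, at 41.4 (rank 500), with 35.7 in replicate 1 and 9.04 in replicate 2. After it came trm-1, encoding a tRNA methyltransferase, at 34.6 (rank 660), with 28.4 and 5.86, and rtcb-1, encoding the tRNA ligase, at 27.3 (rank 1177), with 15.6 and 10.8. Of the others with a candidate, mtcu-2, nsun-2 and elpc-3 also had a value in both replicates. The rest had a value in 1 replicate only, except popl-4, which had none in either. The promoter window of rcat-1 itself held 0 candidate regions.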

How the data were processed

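Candidate regions of ChIP-seq in 2 biological replicates were analysed from the ce11 lists. Per the deposited notes, each list was called from aligned reads of 1 replicate, or of both joined, against a control; which aligner and peak caller were run is not given in the sources used here. The signal is column 7 of the deposited lists, a value per region from the authors' peak caller. No source states its scale or whether it is scaled to depth, so it was compared within lists only. Read depth is unknown, and its effect on precision could not be given. The ce10 lists were not used here. Genes came from Ensembl release 115 (WBcel235, the sequence of ce11), and amino acids (607 of 612 nuclear genes) and sequences from the RefSeq copy of that assembly.

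Python 3.11.15, pandas 2.3.3, numpy 2.4.6 and scipy 1.17.1 were used. Summits were set against strand-aware 5′ ends; densities compare summits per bp, in bins that include their lower bound, with each chromosome's mean, and a summit near 2 genes counts for each. Regions were matched between lists by overlap of at least 1 bp and nearest summit; the matches were to 265 different regions in replicate 1 and 184 in replicate 2. With 1 group and regions that are not replicates, no test was run, and shares carry 95% Wilson intervals (counting error only). The distance and matching code was tested on simulated data. Members, words and gene lists were chosen with earlier results of these data known. Named are the members of the IDR set, the highest members (of all, with no coding promoter, and with the summit inside a tRNA gene), the genes with most members, the members whose replicate ranks differ most, the amino acids with extreme shares, rcat-1 and the leading genes of both lists; K11H12.t1 was added after its values were seen. Of 13 and 21 listed genes, 12 and 18 were matched by symbol. Alternatives were other windows, each replicate's list alone, the top 15000 regions, nuclear tRNA genes only, other matching rules and other word windows.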

Additional observations from a re-analysis of the deposited data

How the results depend on the processing

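Of 65 alternatives for 11 values, 39 stayed within the interval or spread set for the value, 25 moved beyond it and 1 turned its sign. Some outcomes were fixed in advance. Counting nuclear tRNA genes only could change just the share of genes with a member (47.5% in place of 45.9%). For the median rank, density ratio and signal difference, the spread came from the replicate lists that are also alternatives. For the number of regions it was a set factor. The tally is thus no measure of stability. With tRNA windows of 500 and 2000 bp there were 226 and 618 regions, 32.8% and 61.8% of tRNA genes had one, the share of summits within 100 bp was 44.7% and 16.3%, and the density ratio was 1.41 and 1.10; the median rank at 500 bp was 9991.5. In the top 15000 regions there were 204 members at 28.7% of the genes, with 38.7% within 100 bp, a median rank of 5353.5, a density ratio of 1.37 and 55.4% matched in both replicates. With a smaller and a larger set of top regions in place of the IDR set, its share was 0.552% and 9.12%. With narrower and wider coding windows, 15.7% and 45.6% of members lay in one. Matching by overlap over 50% of both regions gave 29.0% in both replicates, and by summits within 100 bp 22.9%. Narrower and wider word windows gave 3.87% and 18.8%. Each replicate's list alone gave from 336 to 373 regions, from 22.9% (replicate 2) to 30.0% (replicate 1) within 100 bp, median ranks from 12037.0 to 14831.5 and density ratios from 1.13 to 1.25; the median signal with a coding promoter minus that without ran from -0.219 (replicate 2's list) to 1.34 (replicate 1's), against 0.932 in the joined list. The cause was not tested. No paired analysis was possible because the study has 1 group. Without read depth, a region missing from a list cannot be told from one below its limit of 30000.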

Other observations

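Some other small RNA genes that RNA polymerase III is known to transcribe lay beside candidate regions, and others did not. The gene of the RNase P RNA, rpr-1, whose product trims the 5′ end of tRNA precursors, had a region in the IDR set within 100 bp of its 5′ end, with a joined signal of 41.0 at rank 505. The gene of the related RNase MRP RNA, mrpr-1, had one within 100 bp at rank 574, with a signal of 37.7. The Y RNA gene yrn-1 had none within 1000 bp. Of 20 nuclear rRNA genes, not split here by polymerase, 1 had a candidate within 1000 bp and none within 100 bp. It was rrn-4.15, with a signal of 12.9 at rank 23182. Of 129 snRNA genes, which RNA polymerase II transcribes for the most part, 22 had a candidate within 100 bp (17.1%) and 13 one of the top 3000 (10.1%). For tRNA genes these shares were 17.3% and 7.19%, for snoRNA genes 18.8% and 8.96%, for miRNA genes 6.51% and 1.53%, and for protein-coding genes, by their outermost 5′ end, 7.26% and 1.61%. These genes were chosen with earlier results known, and their replicate values were not compared here.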
